A study of Mus musculus with 8 samples.

Results

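The 10 genes described here encode the 2 chains of the interferon gamma receptor (Ifngr1, Ifngr2), the transcription factor IRF1 (Irf1) and 7 interferon-inducible GTPases, of which 4 are guanylate-binding proteins (Gbp2, Gbp3, Gbp5, Gbp7) and 3 are immunity-related GTPases (Irgm1, Igtp, Iigp1). They were taken by symbol from the deposited gene tables, and all 10 of the 45706 listed genes that carry these names were found and passed the filter on low counts that left 14006 genes. Their mRNA was measured by RNA sequencing in 4 libraries of natural killer (NK) cells from tumours (tuNK, by their titles) and 4 of NK cells from spleens (spNK), sorted from BALB/c mice given a subcutaneous graft of CT26, a mouse colon carcinoma line made deficient in β2-microglobulin and therefore in surface MHC class I. No other treatment is named, the age and sex of the mice and the sorting markers are not given in the labels, and the labels do not say whether replicates are separate mice, so the p-values rest on the spread among these libraries, which may be technical. The tissue label contradicts the title in all 8 samples (spleen for tuNK, tumour for spNK); the titles were followed, and every direction below depends on that.

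Interferon gamma, which NK cells and T cells secrete, binds IFNGR1 and brings in IFNGR2, and the kinases JAK1 and JAK2 on these chains then start a signal to the nucleus. There, gamma-activated sequences (GAS) serve to switch on early genes such as Irf1, whose product binds interferon-stimulated response elements (ISRE) of further genes. Guanylate-binding proteins (GBPs) and immunity-related GTPases (IRGs) are among the most strongly induced of those genes in mouse cells, and their products gather on vacuoles that hold parasites or bacteria. Nearly all cell types, carcinoma cells and fibroblasts included, can respond to the cytokine in this way.

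The promoters are shown because the members differ in these elements. Any link between the elements and the levels in these libraries was not tested. RefSeq promoter windows on GRCm38.p6, 250 bases before and 50 after a start site, were matched by symbol for 9 of the 10 members, all but Iigp1. They were searched on both strands for GAAA, any 2 bases and GAAA again, a core of the ISRE, and for TTCNNNGAA, the GAS. A window with the ISRE letters was found for each of the 6 GTPase genes that matched (the second of 2 windows of Gbp3 had none), against 3.44% of all 32851 windows in the table. Irf1 had a GAS match at position -90 from the start site, in the first of its 2 windows, and no ISRE match, and GAS letters stood in 8.3% of all windows. Gbp5 (2 matches), Gbp7 (2 matches) and Igtp also held GAS letters, whereas the windows of Ifngr1 and Ifngr2 held neither motif. A match is only a description of the letters. The stretches around the ISRE matches, and around the GAS of Irf1, follow 5′ to 3′, each on its gene's strand, with the matches inside them in capitals. Both GAS matches of Gbp5 and 1 of Gbp7 lie outside the stretches shown.
Gbp2: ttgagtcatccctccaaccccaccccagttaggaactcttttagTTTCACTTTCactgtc
Gbp3: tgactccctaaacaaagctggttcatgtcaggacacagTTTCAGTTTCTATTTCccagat
Gbp5: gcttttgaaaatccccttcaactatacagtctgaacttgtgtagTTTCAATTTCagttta
Gbp7: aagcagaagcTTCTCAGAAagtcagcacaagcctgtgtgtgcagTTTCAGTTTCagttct
Irgm1: tgtttcaaGAAATAGAAACCGAAActgatt
Igtp: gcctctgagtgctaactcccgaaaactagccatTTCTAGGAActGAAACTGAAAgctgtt
Irf1: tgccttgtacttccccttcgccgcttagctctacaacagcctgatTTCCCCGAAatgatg
These stretches are chr3:142620560-142620619 for Gbp2, chr3:142559961-142560020 for Gbp3, chr3:142496725-142496784 for Gbp5, chr3:142530239-142530298 for Gbp7, chr11:48871429-48871458 on the minus strand for Irgm1, chr11:58199478-58199537 for Igtp and chr11:53769879-53769938 for Irf1, all on the plus strand but Irgm1. All 30 bases of the Irgm1 stretch and 18 of the Gbp2 stretch lie inside exons annotated by GENCODE M21, whose starts differ from the RefSeq ones. In Gbp3 and in Irgm1 the capitals join 2 overlapping ISRE matches, and in Gbp7 and Igtp the first run of capitals is a GAS and the second an ISRE match.

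The libraries held 38745733 to 45404059 estimated counts in tuNK and 40560781 to 53886933 in spNK. All 12 NK cell markers were present in both groups but lower in tuNK without overlap, with a summed level of 4201 to 5940 TPM (the deposited length-corrected level) in tuNK and 14931 to 22452 TPM in spNK. All 32 genes expressed across leukocytes were likewise lower, at 3004 to 4021 TPM in tuNK and 10570 to 13660 TPM in spNK, whereas all 14 mesenchymal markers were higher, at 5476 to 7028 TPM in tuNK and 964 to 1126 TPM in spNK, most of it Vim, which leukocytes express too. Among these Col1a2, a collagen gene, was at 257 to 556 TPM in tuNK and 0.33 to 0.859 TPM in spNK. Epithelial markers summed to 31.3 to 41.9 TPM in tuNK and 1.05 to 5.03 TPM in spNK, with Epcam, Krt8, Cdh1 and Vil1 under 1 TPM in every tuNK library. In the same list Krt18 was at 20.1 to 31 TPM in tuNK and 0.922 to 3.19 TPM in spNK, Krt20 at 3.45 to 6.24 TPM in tuNK and listed at 0 in spNK, and Cdh17 at 2.62 to 3.91 TPM in tuNK and 0 to 0.164 TPM in spNK, and all 3 were called higher. Of the macrophage markers Cd14 was called higher, at 34.9 to 50.5 TPM in tuNK and 0 to 0.313 TPM in spNK, and made up most of the tuNK sum of that list. Other lists were lower in tuNK or overlapped: macrophage markers summed to 42.3 to 59.2 TPM in tuNK, with Csf1r, Adgre1, C1qa, C1qc and Fcgr1 under 1 TPM in each tuNK library, and 45.2 to 267 TPM in spNK, dendritic cell markers to 52.9 to 77.6 TPM in tuNK and 347 to 894 TPM in spNK, neutrophil markers to 0.239 to 1.93 TPM in tuNK and 50 to 195 TPM in spNK, T cell markers to 14.9 to 27.3 TPM in tuNK and 46.3 to 56.8 TPM in spNK, endothelial markers to 12 to 19.8 TPM in tuNK and 44.8 to 60.4 TPM in spNK, B cell markers to 15.2 to 24.8 TPM in tuNK and 217 to 1072 TPM in spNK, erythroid markers to 1.1 to 4.49 TPM in tuNK and 334 to 1484 TPM in spNK, and platelet markers to 4.29 to 5.47 TPM in tuNK and 403 to 704 TPM in spNK. The library spNK 3 had the highest B cell, macrophage, dendritic, neutrophil and erythroid sums. The 10 genes are not specific to leukocytes. What part RNA of mesenchymal, carcinoma or other cells has in the results below was not tested. A second scaling, in which each library is set to its counts of the 32 leukocyte genes, is therefore given beside the usual TMM scaling (trimmed mean of M values) and called leukocyte-scaled. It was chosen with earlier results of these data known, and under it the median change over all genes was 1.71 higher on the log2 scale.

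The receptor chains changed in opposite directions. Ifngr1, which encodes the ligand-binding chain, was at 227, 253, 215 and 230 TMM-scaled CPM (counts relative to library size, compared here only within a gene) in tuNK 1 to 4 and at 467, 496, 402 and 453 CPM in spNK 1 to 4. Every tuNK library was below every spNK library, and the 4 tuNK values lay close together. Ifngr1 (ENSMUSG00000020009, GRCm38 chromosome 10, 19591949 to 19610229, plus strand) was 1.97-fold lower, a log2 fold change of -0.98 ± 0.09 (SE; quasi-likelihood test of edgeR, p adjusted over all genes by Benjamini-Hochberg, adjusted p = 3.6e-06). The leukocyte-scaled change was 0.74 in the other direction (adjusted p = 1.15e-04), so Ifngr1 fell less than the leukocyte genes did. In bulk RNA, fewer cells of a type and less RNA per cell cannot be told apart.

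Ifngr2, which encodes the chain that carries JAK2, was at 44.5, 37.7, 34.6 and 33.3 CPM in tuNK 1 to 4 and at 1.28, 2.96, 5.6 and 4.78 CPM in spNK 1 to 4. The groups did not overlap, and the lowest tuNK library stood several times above the highest spNK library. Ifngr2 (ENSMUSG00000022965, chromosome 16, 91547072 to 91565623, plus strand) rose 10.2-fold, a log2 fold change of 3.36 ± 0.38 (edgeR adjusted p = 3.52e-05; leukocyte-scaled 5.03). The spNK values rest on 55, 167, 274 and 211 estimated counts in spNK 1 to 4. Among the spNK libraries the deposited TPM of Ifngr2 did not follow its counts, since spNK 4 had 3.97 TPM and spNK 3, with more counts, 1.99 TPM.

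Irf1 was lower in tuNK. It was at 164, 106, 52.3 and 84.6 CPM in tuNK 1 to 4 and at 283, 243, 198 and 252 CPM in spNK 1 to 4. The groups did not overlap, but the tuNK libraries were spread over a 3.14-fold range with tuNK 1 highest and tuNK 3 lowest. Irf1 (ENSMUSG00000018899, chromosome 11, 53770014 to 53778374, plus strand) was 2.4-fold lower, a log2 fold change of -1.26 ± 0.31 (edgeR adjusted p = 0.00512). Leukocyte-scaled it was at 0.47 and did not pass the test (adjusted p = 0.157), and without tuNK 3, a choice made after that library's low values were seen, it was called higher by that scaling (0.65, adjusted p = 0.0423). The gene Gm17334 lies across Irf1 on the opposite strand, and 0.988% of the 60-base windows of Irf1 transcripts occur in it, a length equal to the reads. Whether the counting used strand is not stated in the labels.

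**Figure D1:**
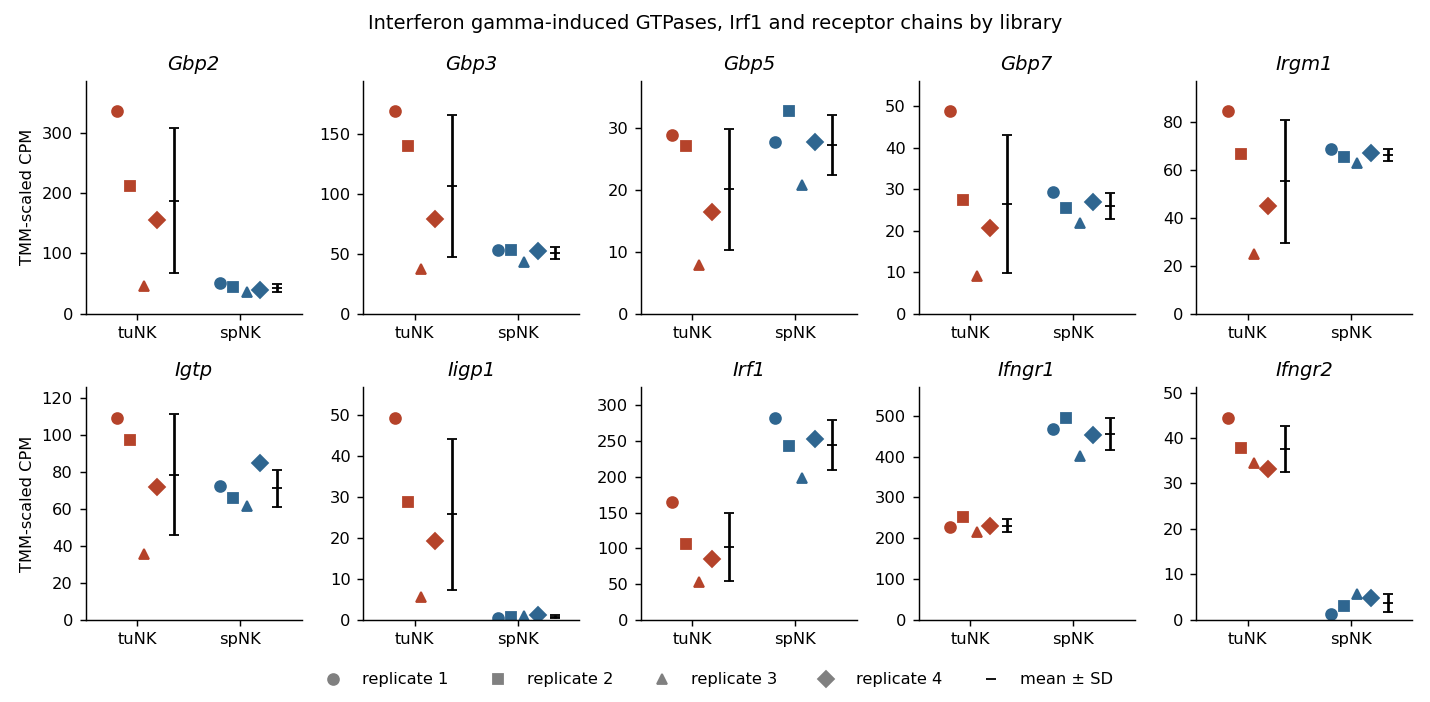
TMM-scaled CPM of the 10 genes in each library, with tuNK on the left and spNK on the right of each panel, 1 marker shape per replicate number and the mean ± SD of 4 libraries in black. Whether equal numbers mark paired samples is not stated in the labels. Every axis starts at 0; Iigp1, Irf1, Ifngr1 and Ifngr2 do not overlap between groups, and tuNK 3 (triangle) is the lowest tuNK library for all genes but Ifngr2.

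Of the GBP genes, 2 rose and 2 did not pass the test. Gbp2, whose lipid-anchored product is needed for control of Toxoplasma in mice, was at 336, 212, 45.9 and 156 CPM in tuNK 1 to 4 and at 50.4, 43.8, 36.5 and 39.7 CPM in spNK 1 to 4. In tuNK, 3 libraries were far above spNK, and tuNK 3 lay inside the spNK range. Gbp2 (ENSMUSG00000028270, chromosome 3, 142620602 to 142638008, plus strand) rose 4.4-fold, a log2 fold change of 2.14 ± 0.51 (edgeR adjusted p = 0.00532; leukocyte-scaled 3.85).

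Gbp3, a neighbour of Gbp2 in the chromosome 3 cluster, was at 169, 140, 37 and 79.4 CPM in tuNK 1 to 4 and at 52.9, 53.3, 43.5 and 52.6 CPM in spNK 1 to 4. Here tuNK 3 was below every spNK library and the other tuNK libraries above. Gbp3 (ENSMUSG00000028268, chromosome 3, 142560026 to 142573209, plus strand) rose 2.1-fold with a log2 fold change of 1.07 ± 0.41 (edgeR adjusted p = 0.0419; leukocyte-scaled 2.78). That call passed narrowly and was lost without tuNK 1 (0.75, adjusted p = 0.115), tuNK 2 (0.91, 0.107), spNK 1 (1.09, 0.0784), spNK 2 (1.10, 0.0822), spNK 3 (1.00, 0.117) or spNK 4 (1.08, 0.0812).

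Gbp5, which promotes inflammasome assembly, was at 28.9, 27.1, 7.93 and 16.4 CPM in tuNK 1 to 4 and at 27.7, 32.7, 20.8 and 27.7 CPM in spNK 1 to 4. Gbp7, whose product takes part in the oxidative burst of macrophages, was at 48.8, 27.4, 9.12 and 20.7 CPM in tuNK 1 to 4 and at 29.4, 25.4, 21.9 and 26.9 CPM in spNK 1 to 4. In both genes the groups overlapped, with tuNK 3 and tuNK 4 below every spNK library. The log2 fold changes were -0.44 ± 0.35 for Gbp5 (ENSMUSG00000105504, chromosome 3, 142493978 to 142522344, edgeR adjusted p = 0.292) and 0.03 ± 0.41 for Gbp7 (ENSMUSG00000040253, chromosome 3, 142530342 to 142550149, edgeR adjusted p = 0.947), while leukocyte-scaled both were called higher, at 1.27 for Gbp5 and 1.76 for Gbp7. Paralogues can exchange reads, since 12.1% of the 60-base windows of Gbp7 transcripts occur in another gene (the pseudogene Gm43802 or Gbp3), against 2.96% for Gbp3, 1.55% for Gbp2 (all in Gbp2b) and 1.1% for Gbp5.

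Of the IRG genes 1 rose. Iigp1 encodes an effector IRG that coats parasite vacuoles in mouse cells, and it was at 49.3, 28.8, 5.67 and 19.1 CPM in tuNK 1 to 4 and at 0.349, 0.586, 1 and 1.27 CPM in spNK 1 to 4. It was close to absent from every spNK library (15, 33, 49 and 56 estimated counts in spNK 1 to 4) and clearly present in each tuNK library. Iigp1 (ENSMUSG00000054072, chromosome 18, 60376027 to 60392634, plus strand) rose 32.0-fold, a log2 fold change of 5.0 ± 0.71 (edgeR adjusted p = 2.43e-04; leukocyte-scaled 6.68).

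Irgm1 and Igtp encode the regulatory IRGs, which guard the cell's own membranes against the effector IRGs. Irgm1 was at 84.3, 66.5, 25.1 and 44.7 CPM in tuNK 1 to 4 and at 68.9, 65.2, 62.9 and 67 CPM in spNK 1 to 4. Igtp was at 109.5, 97.6, 35.7 and 71.7 CPM in tuNK 1 to 4 and at 72.6, 65.8, 61.5 and 84.7 CPM in spNK 1 to 4. In both genes tuNK values lay above and below a narrow spNK range. Neither passed the edgeR test, with log2 fold changes of -0.26 ± 0.31 for Irgm1 (ENSMUSG00000046879, chromosome 11, 48861968 to 48871683, minus strand, adjusted p = 0.48) and 0.14 ± 0.30 for Igtp (ENSMUSG00000078853, chromosome 11, 58199556 to 58207591, plus strand, adjusted p = 0.687), though leukocyte-scaled both were called higher, at 1.44 for Irgm1 and 1.84 for Igtp. Igtp overlaps Irgm2 on the same strand and shares 10% of its 60-base windows with it.

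By TMM scaling, 6 of the 10 genes were called in either direction, against 69.6% of all genes tested. Of these, 4 were higher (Gbp2, Gbp3, Iigp1, Ifngr2), against 35.6% of all genes, and 2 lower (Irf1, Ifngr1), against 34%. The same number of calls was made in each direction without tuNK 3, where 33.1% of genes were called higher and 32.7% lower. Groups did not overlap in 4 of the 10 genes, against 67.1% of all genes, a lower share than the background. Leukocyte-scaled, 9 were called higher and 0 lower, against 78.7% and 6.15% of all genes. Most genes were thus higher by this scaling, and the share of all genes without overlap was not computed for it. The overlaps that follow are therefore only a description. Counts per 1000 counts of the leukocyte genes did not overlap between groups for any gene but Gbp5 and Irf1: Gbp2 was at 66.2, 33.3, 9.47 and 25.6 in tuNK 1 to 4 and at 2.52, 2.23, 2.32 and 2.24 in spNK 1 to 4, and Ifngr1 at 44.7, 39.7, 44.3 and 37.8 in tuNK 1 to 4 and at 23.3, 25.2, 25.6 and 25.5 in spNK 1 to 4.

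**Figure D2:**
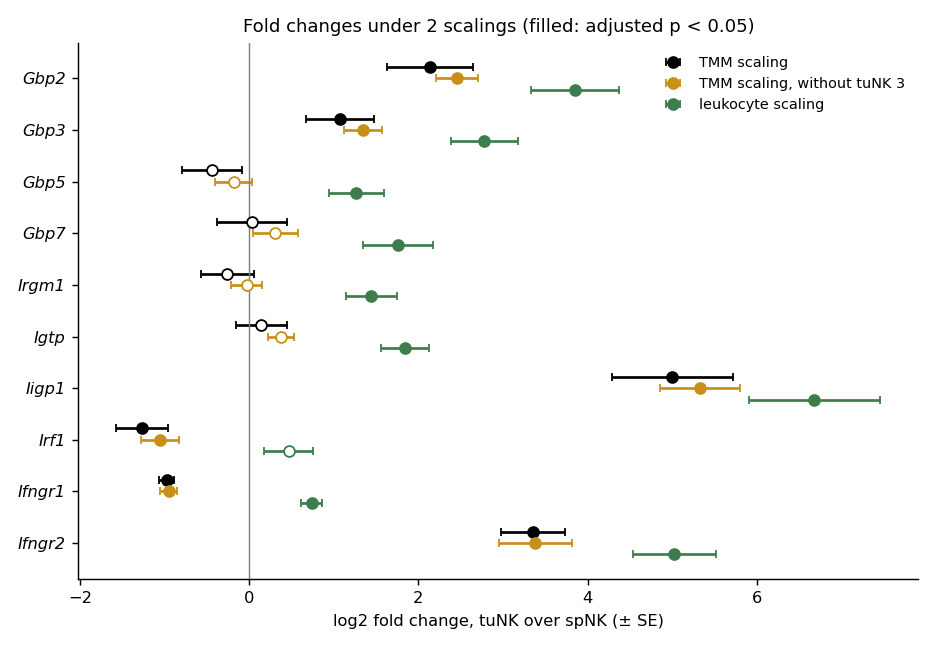
Log2 fold changes of tuNK over spNK with their SE for the 10 genes, by TMM scaling in all 8 libraries (black), by TMM scaling without tuNK 3 (amber) and by leukocyte scaling (green); filled points pass an adjusted p of 0.05. Irf1, Ifngr1, Gbp5 and Irgm1 are below 0 by TMM scaling (Gbp5 and Irgm1 not called) and above 0 when leukocyte-scaled, whereas Gbp2, Gbp3, Iigp1 and Ifngr2 are above 0 in each.

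Among the tuNK libraries the GTPases and Irf1 kept 1 order. In TMM-scaled CPM, tuNK 1 was highest in 8 of the 10 genes, followed by tuNK 2, tuNK 4 and tuNK 3. Of all genes tested, 7.19% had this order in CPM. The exceptions in CPM were Ifngr1 and Ifngr2. In deposited TPM, however, Ifngr2 had this order too, at 19.7, 13.4, 9.89 and 10.4 TPM in tuNK 1 to 4. Ifngr1 did not have it in TPM either, at 150, 143, 114 and 113 TPM, with tuNK 4 lowest. In CPM, tuNK 3 was lowest in 9 of the 10, against 28.7% of all genes. In CPM, the level in tuNK 1 was 8.7-fold that in tuNK 3 for Iigp1, 7.33-fold for Gbp2, 5.35-fold for Gbp7 and 4.56-fold for Gbp3. It was 3.64-fold for Gbp5, 3.37-fold for Irgm1, 3.14-fold for Irf1 and 3.07-fold for Igtp, but 1.29-fold for Ifngr2 and 1.06-fold for Ifngr1. The markers were compared in deposited TPM, a different measure, so their ratios cannot be set directly against those in CPM. In TPM, tuNK 1 was at 1.11 times tuNK 3 for the summed NK cell markers and 1.16 times for the leukocyte genes. The mesenchymal sum was at 1.2 times with Vim and at 1.67 times without it (1310.2, 831, 787 and 837 TPM in tuNK 1 to 4). All 14 mesenchymal markers were higher in tuNK 1 than in tuNK 3 in TPM, by 1.13-fold for Vim to 3.87-fold for Dcn. Also in TPM, tuNK 3 was the lowest tuNK library for 8 of these markers, and 2 had the order of the GTPases. Their part in that order was not tested. The order is a description of 4 libraries, whose replicates have no order of their own.

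**Figure D3:**
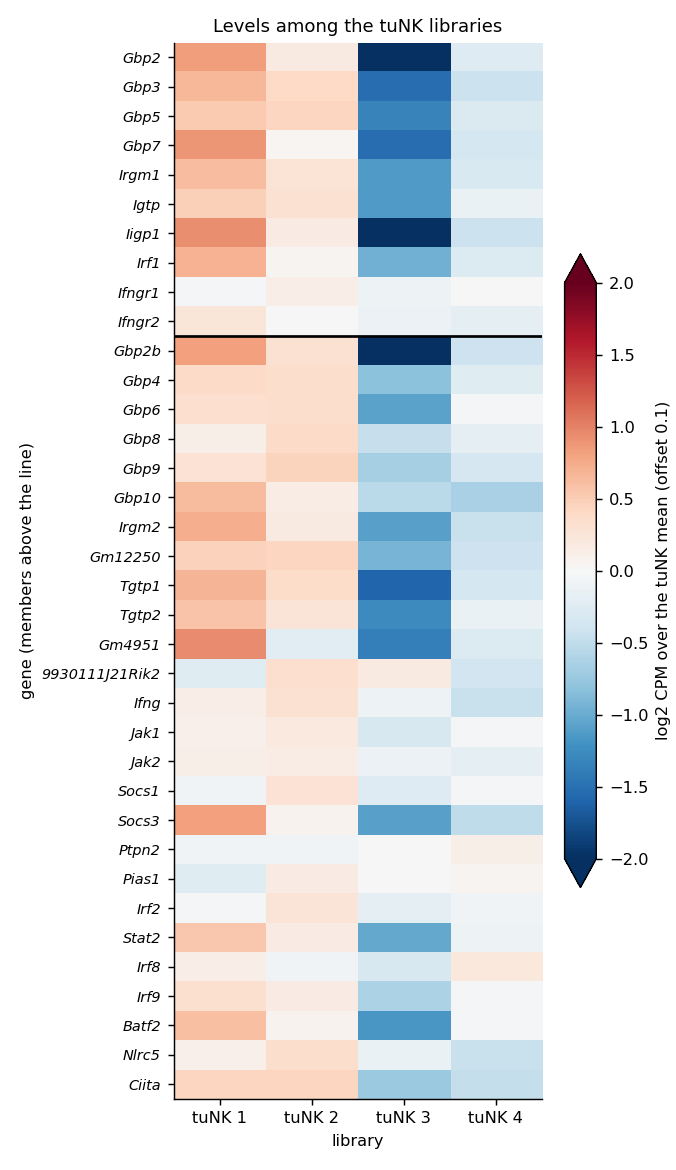
Level of each gene in tuNK 1 to 4 as the log2 of CPM over the mean of the 4 tuNK libraries (offset 0.1, colour scale ending at ±2), with the 10 genes above the black line and named genes of related lists below. The column of tuNK 3 is blue for the GTPases, Irf1, Socs3 and Batf2 and pale for Ifngr1, Ifngr2, Ifng and Jak2.

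Levels of different genes were compared as TPM, which corrects for length. In tuNK the order of means was Ifngr1 (130 ± 19 TPM, SD, n = 4), Gbp2 (80.2 ± 58.2), Irf1 (52 ± 29.8), Gbp3 (42.9 ± 24.4), Igtp (42 ± 20.5), Irgm1 (30.8 ± 16.9), Ifngr2 (13.3 ± 4.51), Iigp1 (9.19 ± 7.32), Gbp5 (6.69 ± 3.74) and Gbp7 (5.46 ± 3.77), and the ranges of each pair of neighbours in that order overlapped. In spNK the order was Ifngr1 (302 ± 29.3 TPM), Irf1 (141 ± 21.4), Igtp (44.6 ± 7.23), Irgm1 (43.9 ± 2.24), Gbp3 (22.6 ± 2.41), Gbp2 (20.8 ± 3.03), Gbp5 (10.9 ± 1.94), Gbp7 (5.86 ± 0.955), Ifngr2 (2.03 ± 1.36) and Iigp1 (0.323 ± 0.166), where only the ranges of Igtp with Irgm1 and of Gbp3 with Gbp2 overlapped. Within single libraries the order was kept more often than the ranges show: each gene stood above the next in 3 or 4 of the 4 tuNK libraries, and in spNK in 3 or 4 as well, except Igtp, which was above Irgm1 in 1 of 4.

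The 7 GTPases summed to 385, 252, 71.8 and 160 TPM in tuNK 1 to 4 and to 158, 146, 129 and 163 TPM in spNK 1 to 4, so the sum in tuNK lay above, within and below the spNK range. The make-up of the sum differed more evenly. Gbp2 took 24.1 to 40.5% of it in tuNK and 12.7 to 15.5% in spNK, Iigp1 2.52 to 4.94% in tuNK and 0.0906 to 0.317% in spNK, Irgm1 13.5 to 18.5% in tuNK and 27.8 to 32.5% in spNK, and Gbp5 2.75 to 3.52% in tuNK and 6.31 to 8.56% in spNK. These shares did not overlap between the groups and do not depend on how libraries are scaled. Nor did those of Gbp3 (17.7 to 25.4% in tuNK, 14.5 to 16.2% in spNK), Igtp (16.8 to 23.9%, 27.8 to 33.2%) and Gbp7 (2.24 to 2.75%, 3.55 to 4.22%). Shares of 1 sum are tied, since a larger share of some genes lowers those of others. A lower share is therefore not a lower level, and neither Irgm1 nor Gbp5 was called by TMM scaling.

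**Figure D4:**
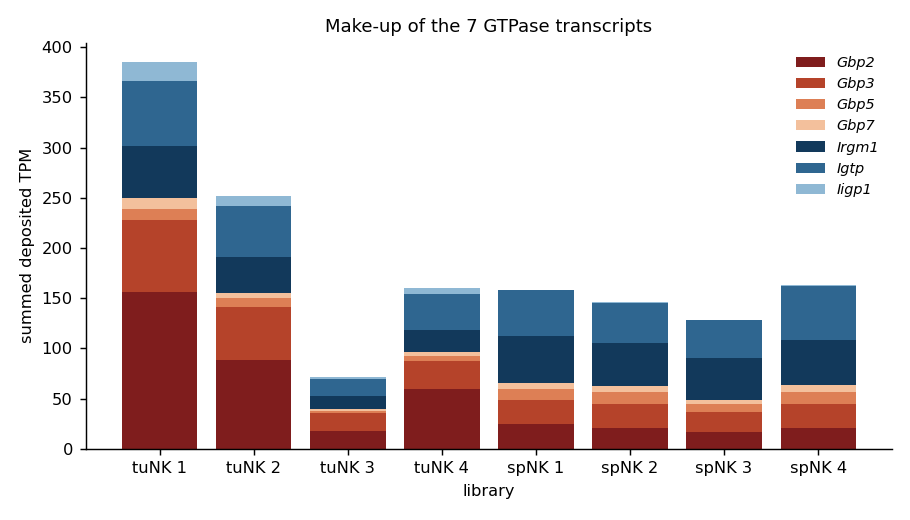
Summed deposited TPM of the 7 GTPase genes in each library, tuNK 1 to 4 on the left and spNK 1 to 4 on the right, with bars from 0 divided by gene. The total in tuNK 3 (71.8 TPM) is the lowest and that in tuNK 1 (385 TPM) the highest, and Gbp2 takes a larger part of every tuNK bar than of any spNK bar.

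Scaling does not change a ratio of genes within a library, and 3 such ratios were tested by exact permutation (two-sided, 70 ways to assign the libraries, p adjusted over the 3). Ifngr1 stood at 7.58, 10.6, 11.4 and 10.8 times Ifngr2 in tuNK 1 to 4 and at 270, 277, 127 and 72 times in spNK 1 to 4 (TPM with an offset of 0.1). The mean log2 ratio was 3.32 ± 0.27 in tuNK and 7.34 ± 0.94 in spNK (SD, n = 4), a difference of -4.02 (exact permutation p = 0.0286, adjusted p = 0.0286). The ratio was thus 16.2-fold lower in tuNK. In TPM, Ifngr1 was lower and Ifngr2 higher in every tuNK library than in any spNK library. The ratio therefore had to separate the groups and its p had to be the smallest possible, so this test adds nothing to the results of the single genes.

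The ratio of Gbp2 to Irf1 was 1.67, 1.71, 0.711 and 1.54 in tuNK 1 to 4 and 0.148, 0.151, 0.151 and 0.142 in spNK 1 to 4. It hardly varied in spNK. The ratio in tuNK 3 was above every spNK library, with its Gbp2 level inside the spNK range and its Irf1 level below it. The difference in log2 ratio was 3.16, with means of 0.41 ± 0.60 in tuNK and -2.75 ± 0.04 in spNK (SD, n = 4; exact permutation p = 0.0286, adjusted p = 0.0286). In TPM, Irf1 was lower in every tuNK library than in any spNK library, and Gbp2 was higher in all tuNK libraries but tuNK 3. The levels of the single genes thus nearly fixed this separation and its p, so the test adds little to their results. The ratio of Igtp to Irgm1 was 1.25, 1.41, 1.29 and 1.6 in tuNK 1 to 4 and 0.996, 0.96, 0.897 and 1.19 in spNK 1 to 4, a smaller log2 difference of 0.46, again without overlap (exact permutation p = 0.0286, adjusted p = 0.0286). Without any 1 tuNK library the Igtp to Irgm1 difference was 0.39 to 0.50 and missed the threshold (exact permutation p = 0.0571). The value 0.0286 is the smallest p this design allows.

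**Figure D5:**
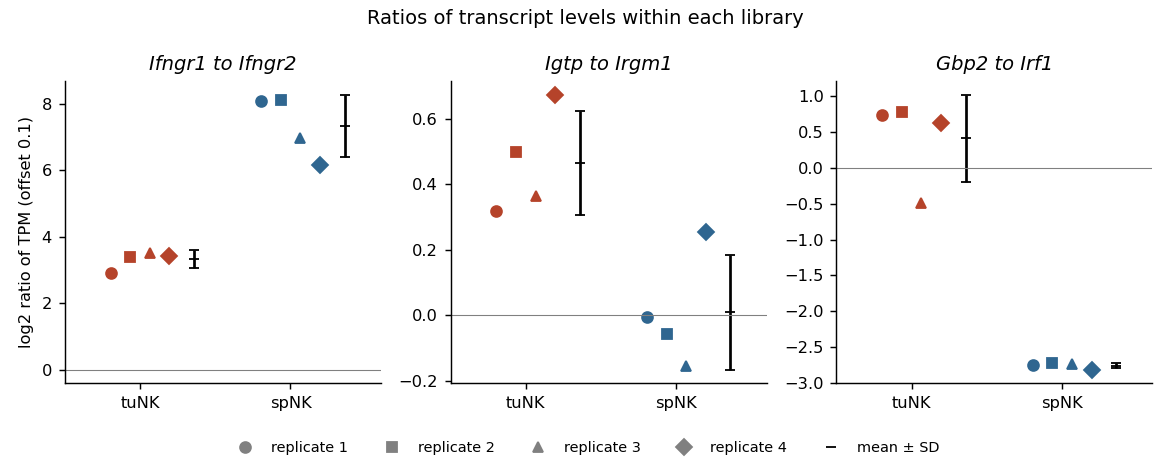
Log2 ratio of deposited TPM (offset 0.1) for 3 pairs of genes in each library, tuNK on the left and spNK on the right of each panel, with the mean ± SD of 4 libraries in black. The axes differ between panels; the groups do not overlap in any of the 3.

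The other genes of the pathway were taken from lists chosen with earlier results of these data known, and named by their TPM over all libraries. Of 65 tested genes in these lists 20 were called higher and 21 lower, shares near the 35.6% and 34% of all genes, with a median log2 fold change of -0.02, beside 0.02 over all genes. Ifng, the ligand, was at 18.4, 20.6, 15.6 and 12.3 CPM in tuNK 1 to 4 and at 26.9, 20.6, 12 and 21.9 CPM in spNK 1 to 4, and the groups overlapped (log2 fold change -0.28 ± 0.24, edgeR adjusted p = 0.317, but called lower without spNK 3 at -0.48, adjusted p = 0.0386). Leukocyte-scaled, Ifng was called higher, at 1.46 (edgeR adjusted p = 7.50e-05). Jak1, the kinase on IFNGR1, fell by 2.21 ± 0.14 (log2; edgeR adjusted p = 2.79e-07), and leukocyte-scaled it was also called lower, at -0.49. Jak2 fell by 1.08 ± 0.11 (leukocyte-scaled 0.63).

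Genes that restrain the signal were all called, 2 higher and 3 lower, where 69.6% of all genes tested were called, 35.6% higher and 34% lower. Socs3 rose by 4.11 ± 0.41 on the log2 scale and Socs1, the main feedback inhibitor of JAK signalling from this receptor, by 1.67 ± 0.15. Ptpn2, a phosphatase of JAK1, fell by 0.86, Pias1 fell by 1.35, and Irf2, which competes with IRF1 for ISRE sites, fell by 1.45. Leukocyte-scaled, Ptpn2 was at 0.87 and Pias1 at 0.37, both called higher, and Irf2 at 0.26, not called. Of 6 partner factors 1 rose and 2 fell, beside 35.6% and 34% of all genes. Batf2, which acts with IRF1 in macrophages, was at 28.6, 19.8, 8.29 and 18.3 CPM in tuNK 1 to 4 and at most 0.793 CPM in spNK (log2 fold change 6.25 ± 0.94, edgeR adjusted p = 3.57e-04). Irf9 fell by 0.83 (leukocyte-scaled 0.88) and Ciita, the master factor of MHC class II genes, by 2.80 (leukocyte-scaled -1.16, not called), while Stat2 (-0.17), Irf8 (-0.23) and Nlrc5 (-0.24), the master factor of MHC class I genes, did not pass the test.

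The GBP genes outside the 10 gave 4 higher and 2 lower of 7, beside 35.6% and 34% of all genes, with a median log2 fold change of 1.56. Gbp2b rose by 2.43 ± 0.52, Gbp6 by 1.56 ± 0.29 and Gbp10 by 2.64 ± 0.47, Gbp8 fell by 1.16 and Gbp9 by 0.76 (leukocyte-scaled 0.54 for Gbp8 and 0.94 for Gbp9), and Gbp4 (-0.23) did not pass the test. Of 9 further IRG genes 7 were tested, 2 rose and 5 were not called, beside the same shares of all genes. Tgtp1 rose by 2.48 ± 0.48 and Gm4951 by 4.08 ± 0.86, whereas Irgm2 (0.01), Gm12250 (0.28), Tgtp2 (-0.02) and 9930111J21Rik2 (-0.32) did not pass. Tgtp1 and Tgtp2 are near-identical, so that the split of reads between them is uncertain. tuNK 3 was the lowest tuNK library in 6 of 7 of these GBP genes and in 6 of 7 of the IRG genes, beside 28.7% of all genes.

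Targets of interferon gamma outside the GTPases gave 7 higher and 2 lower of 17 tested, beside 35.6% and 34% of all genes, with a median of 0.31. The most abundant were genes of the immunoproteasome and of MHC class I: Psme2 rose by 0.55 ± 0.09, Psmb8 fell by 0.38 ± 0.12 (leukocyte-scaled 1.31), and Psmb9 (-0.20), Psmb10 (-0.05), Psme1 (0.18) and B2m (-0.07) did not pass the test, though Psme1 passed without tuNK 3 (0.23, edgeR adjusted p = 0.0438). B2m, deleted in the grafted line, was at 2773 TPM in tuNK and 3434 TPM in spNK on average. Of 13 genes of the autophagy conjugation system, which directs IRGs and GBPs to vacuoles, 1 rose and 9 fell, with a median of -0.55 (leukocyte-scaled 1.17, with 11 called higher). Over all genes 35.6% rose and 34% fell, and leukocyte-scaled 78.7% were called higher. Of those named, Atg3 (-0.61), Map1lc3b (-0.55), Gabarap (-0.41) and Gabarapl2 (-0.80) fell and Gabarapl1 (0.19) and Sqstm1 (0.16) did not pass. tuNK 3 was the lowest tuNK library in 15 of the 17 targets and in 4 of the 13 conjugation genes, beside 28.7% of all genes. Of 6 tested genes of the inflammasome, which GBPs help to trigger, 3 rose by TMM scaling and 1 fell, beside 35.6% and 34% of all genes. Gsdmd rose by 0.38, Aim2 by 0.43 and Nlrp3 by 3.92, and Pycard fell by 1.88 (leukocyte-scaled -0.18, not called). Casp1 (0.35) and Casp4 (0.52) did not pass the test. Some of these calls were fragile: Gsdmd was not called without tuNK 2 (0.32), Aim2 was not called when any 1 library but spNK 1 was left out (0.35 to 0.44), Casp1 was called higher without tuNK 3 (0.44), and Casp4 without spNK 1 (0.63) or spNK 2 (0.70).

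Likeness of pattern was measured as the root mean square difference between log2(TPM + 0.1) profiles over the 8 libraries, each centred on its mean, among 6872 genes with a group mean of at least 10 TPM. Closest to Gbp2 were Gbp2b (0.177), Tnfaip3 (0.3) and Tgtp1 (0.322), and Gbp2b was at 95, 58.7, 11.1 and 33.7 TPM in tuNK 1 to 4 and at 11.5, 11.2, 7.99 and 11.4 TPM in spNK 1 to 4. Closest to Irf1 were Tob1 (0.153), Elf2 (0.202) and Tmem140 (0.209). Ifngr1 had the nearest matches, Efhd2 (0.0438), Smap2 (0.0637) and Zdhhc20 (0.072), and Ifngr2 the most distant, Actn1 (0.293), WI1-49P9.2 (0.332) and Pwwp2b (0.346). With 8 libraries and so many candidates these distances are only a description.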

How the data were processed

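Per the submitters' processing notes, the tools were FastQC 0.11.9, STAR and Salmon, and the build GRCm38 (mm10). The annotation, the use of strand and the other versions were not given in the sources used here. Deposited by the authors were estimated counts per gene (7.9 to 8.82% not whole) and TPM per gene, for 45706 genes. Counts were rounded, kept by the filterByExpr rule (14006 genes), scaled with TMM and tested with the edgeR 4.0.16 quasi-likelihood test (robust, Benjamini-Hochberg over all genes, threshold 0.05) in R 4.3.3. The common dispersion was 0.071. This step was tested on simulated data. Log2 fold changes are tuNK minus spNK. The members and lists were chosen with earlier results of these data known. Named were the 10 members, Ifng, Jak1 and Jak2, up to 6 genes per list by mean TPM, and 3 nearest genes for each of 4 members. Some genes of the lists are not reported here. Where a symbol had several rows, the one with most counts was used. Coordinates are GENCODE M21, and 0 columns were left without a sample. Alternatives were other scalings and filters, DESeq2 1.42.0, limma 3.58.1 on log2 TPM, the replicate number as a block, and leaving out libraries.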

Additional observations from a re-analysis of the deposited data

Results flagged for a closer look

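In groups of 4 libraries, 1 value stood far from the other 3 in 7 of 110 gene and group combinations examined (Dixon's test at 95%, which chance passes in about 1 of 20 groups). Of these, 3 were low values of spNK 3: Gbp3 at 43.5 CPM, Gbp2b at 19.3 CPM and Irf2 at 94.5 CPM. In spNK 2, Gm4951 was at 0 CPM. Irf8 was high in spNK 1, at 809.9 CPM, Atg3 was high in spNK 4, at 78.7 CPM, and Gabarapl1 was high in tuNK 4, at 116 CPM. The low GTPase values of tuNK 3 did not pass this test, since the tuNK libraries were spread.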

How the results depend on the processing

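Across 18 alternatives other than leukocyte scaling, 9 of the 10 genes kept their direction or lack of a call, and Gbp3 kept its call in 6, with log2 fold changes of 0.69 to 1.35 and adjusted p of 8.16e-04 to 0.221. Beside the libraries named in the report, the Gbp3 call was lost with library size alone (0.93), with no filter on low counts (1.06), in limma on log-scaled TPM (0.71 adding 1, 0.73 adding 0.1) and with the replicate block (0.87).

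Leukocyte scaling changed most. It gave 11018 genes higher and 861 lower, 9 and 0 of the 10 members, and 56 and 2 of the pathway genes. Without tuNK 3, added after seeing the data, it gave 10 members higher and 0 lower. The sign turned for Gbp5 (1.27, and 1.51 without tuNK 3), Irgm1 (1.44 and 1.66), Irf1 (0.47 and 0.65) and Ifngr1 (0.74 and 0.71). It also turned for Gbp4 (1.48), Gbp8 (0.54), Gbp9 (0.94), Tgtp2 (1.68), 9930111J21Rik2 (1.38), Ifng (1.46), Jak2 (0.63), Ptpn2 (0.87), Pias1 (0.37), Irf2 (0.26), Stat2 (1.53), Irf8 (1.5), Irf9 (0.88), Nlrc5 (1.49), Psmb8 (1.31), Psmb9 (1.5), Psmb10 (1.65), B2m (1.65), Atg3 (1.10), Map1lc3b (1.17), Gabarap (1.31) and Gabarapl2 (0.92). By its construction this scaling sets the summed counts of the 32 leukocyte genes equal in all libraries, and which scaling fits the cells was not tested.

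Whether equal replicate numbers mark paired samples is not stated in the labels. Profiles centred on their group mean gave r of -0.0081 to 0.0417 between same-numbered tuNK and spNK libraries. Between differently numbered ones r was -0.0641 to 0.0354. These values cannot settle the pairing, since a shared mouse need not leave a trace in both tissues. With the replicate block the log2 ratios were -4.02 for Ifngr1 to Ifngr2, 0.46 for Igtp to Irgm1 and 3.16 for Gbp2 to Irf1, each at an exact permutation p of 0.125, the smallest that 4 pairs allow. Without spNK 3 and tuNK 1 they were -4.00, 0.45 and 3.06, each at 0.1, the smallest for 3 against 3. Leaving out 1 library gave -4.41 to -3.76, 0.39 to 0.54 and 3.04 to 3.46.

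Depth limits Iigp1 and Ifngr2 in spNK, where few counts set the size of the fold change. Iigp1 ranged over 2.62 to 5.33 and Ifngr2 over 2.29 to 3.63 across those 18 alternatives.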
